A study of Mus musculus with 38 samples.

Results

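The circadian clock and output genes were described here as a set of 10 transcripts measured in left ventricle: Arntl, Npas2, Nfil3, Per2, Per3, Nr1d1, Nr1d2, Dbp, Tef and Hlf. The members were taken by name from a table of 29564 genes, and all 10 were among the 13765 genes that passed the filter on low counts. RNA was sequenced from 38 wild-type C57BL6 mice, with 1 library per mouse. In HFpEF, a form of heart failure, ejection fraction is preserved. Vehicle was given to 8 non_failing mice and to 8 HFpEF mice, labelled HFpEF+Veh. TYA-018 was given to 11 HFpEF mice (label HFpEF+TYA-018), and a further 11 received empagliflozin (label HFpEF+SGLT2i). TYA-018 inhibits the cytoplasmic deacetylase HDAC6, and empagliflozin inhibits the kidney glucose transporter SGLT2. HFpEF was induced by a high-fat diet with L-NAME, an inhibitor of nitric oxide synthesis, so each of the 3 HFpEF groups carried both the diet and L-NAME. The drugs were given by mouth once a day, and the length of treatment differs between the series title and the methods. The labels call the mice female and the methods call them male. The sources used here give neither the hour of tissue collection nor the age at collection for each library.

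The clock is a feedback loop of transcription that runs in nearly every cell, heart muscle included. BMAL1, the product of Arntl, pairs with CLOCK or its paralog NPAS2, binds E-box sequences and activates the Period genes Per2 and Per3 and the nuclear receptor genes Nr1d1 and Nr1d2. Period proteins then repress that pair, while the Nr1d1 and Nr1d2 products (REV-ERBα and REV-ERBβ) repress Arntl, Npas2 and Nfil3 through ROR elements. Dbp, Tef and Hlf encode activators that bind D-box sequences, and Nfil3 encodes a repressor of the same sequences. Arntl, Npas2 and Nfil3 therefore peak at a phase of the day distant from that of the other 7, which is why their relation over animals can serve as a sign of the hour of collection.

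Libraries held 21451631 to 59280407 counts. The cardiomyocyte list, with Myh6 and Tnnt2 among its 8 genes, summed to between 23960 and 47350 CPM (counts scaled to library size) in every library. A pair of libraries stood apart, V2555 singled out after the values were seen. HFpEF+Veh V2523 carried liver transcripts, with a summed hepatocyte list of 2043 CPM against at most 45.3 in the other vehicle hearts. The same list summed to 34.5 to 504 CPM in non_failing (median 85.2), above the 1.56 to 5.14 of HFpEF+TYA-018 and the 2.25 to 17.5 of HFpEF+SGLT2i. HFpEF+TYA-018 V2555 had the lowest value of a length measure, the mean log2 CPM of the 20% of genes with the longest transcripts minus that of the shortest 20%, with -0.48 against -0.27 to 0.28 in the other 37 libraries. Each called member and each count of correlated pairs is therefore also given without V2523 and without V2555. In whole tissue, fewer cells of a type cannot be told apart from less RNA per cell.

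Levels of the members were compared in TPM, which is scaled for library size and transcript length. Medians over the 38 libraries were 45.2 TPM for Tef, 39.95 for Dbp, 28.0 for Nr1d2, 20.4 for Nr1d1, 11.6 for Per3, 5.05 for Per2, 3.42 for Nfil3, 2.75 for Hlf, 0.53 for Npas2 and 0.027 for Arntl, whose median rests on the 18 libraries listed at 0. The ranges of neighbours in this order overlapped, except that the lowest Hlf value, 1.39 TPM, lay above the highest Npas2 value, 1.27 TPM. The output genes Tef and Dbp were thus the highest, and the activator Npas2 was the lowest of the 9 members other than Arntl.

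**Figure D1:**
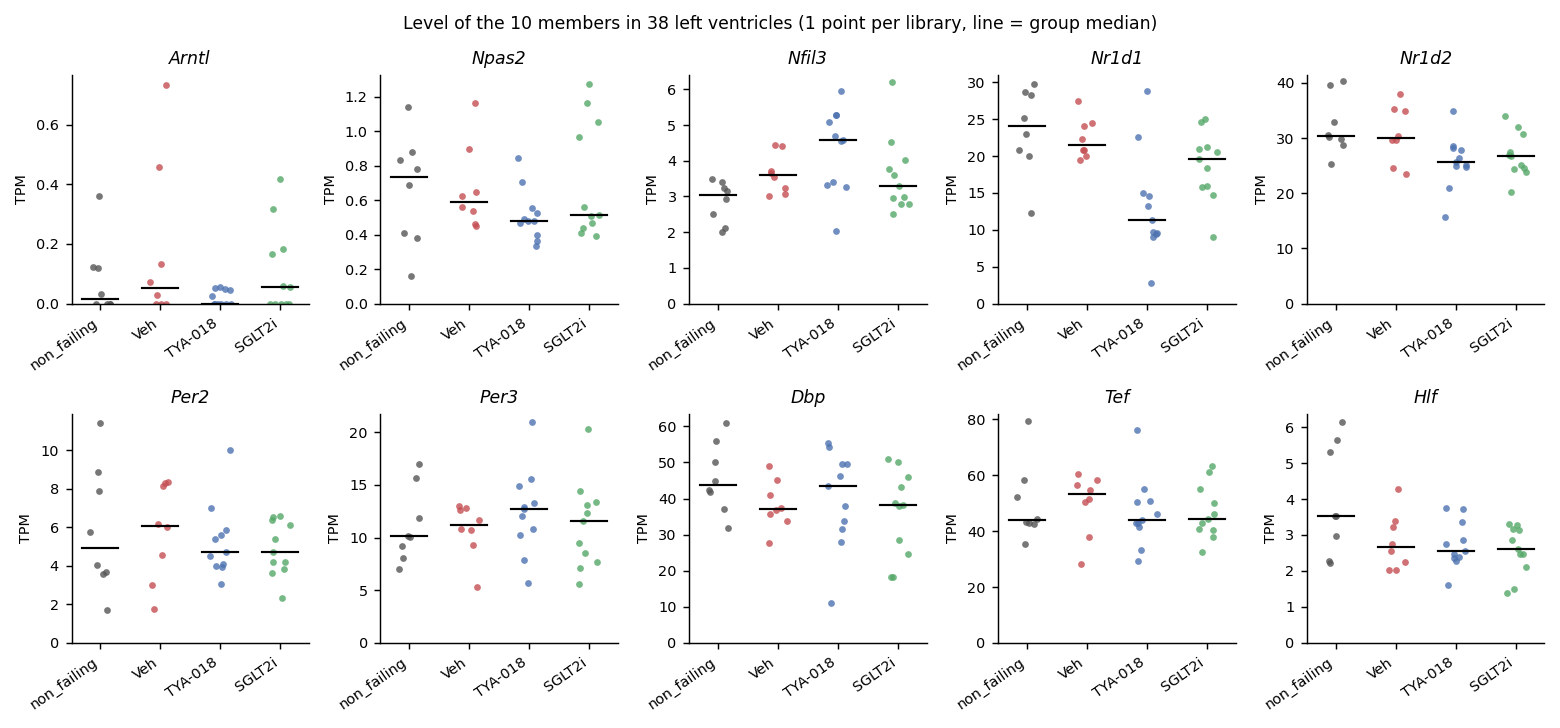
Level of each member in TPM (linear axes from 0) in the 38 libraries, with 1 point per library and a line at the group median. Most HFpEF+TYA-018 points for Nr1d1 lie near the median of 11.4 TPM, below all vehicle points, whose lowest is 19.4, while 2 sit at 22.6 and 28.8.

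In the 3 comparisons that ask what disease or drug did against the matched control, no member passed the test. HFpEF+Veh against non_failing gave 0 of 10 members, where 3.15% of all genes tested were called (edgeR quasi-likelihood test, adjusted p under 0.05). HFpEF+TYA-018 against HFpEF+Veh gave 0 of 10, with 1.93% of all genes called, and HFpEF+SGLT2i against HFpEF+Veh gave 0 of 10, with 0.85% called. At an unadjusted p under 0.05 those comparisons held 1, 3 and 0 members by edgeR, Arntl among the 3, where 15.9%, 17.5% and 10.05% of all genes tested did. The 2 drugs compared with each other gave 0 of 10, and 0% of all genes were called. At an unadjusted p under 0.05, 2 members, Arntl and Nr1d1, and 1821 genes (13.2% of those tested) passed there by edgeR. DESeq2 called 187 genes there and limma 0, each at its adjusted p. With DESeq2 and with limma the member counts of these 4 comparisons were also 0.

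Members were called only where a drug group was set against the non_failing hearts. HFpEF+TYA-018 against non_failing gave 2 of 10, Nfil3 higher and Nr1d1 lower, with 7.39% of all genes called. HFpEF+SGLT2i against non_failing gave 1 of 10, Hlf lower, with 6.45% of all genes called. Both comparisons combine diet, L-NAME and drug, and they share the same 8 control libraries. Of the 10 hepatocyte genes, 10 and 9 were also called lower in these comparisons, and their part in the calls of the members was not tested. The median log2 fold change of the members was -0.22 and -0.18 in these comparisons, against 0.01 for all genes in each.

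**Figure D2:**
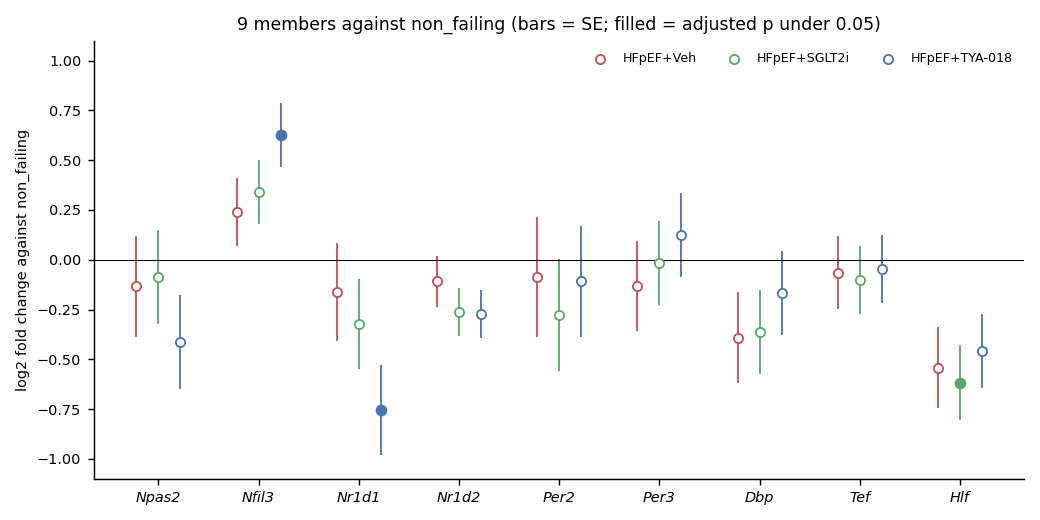
Log2 fold change of 9 members (without Arntl) against non_failing in the 3 HFpEF groups, with bars for the standard error and filled points for an adjusted p under 0.05. Nfil3 and Nr1d1 are filled for HFpEF+TYA-018 at 0.63 and -0.76, and Hlf is filled for HFpEF+SGLT2i at -0.62.

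Arntl, the activator at the centre of the loop (ENSMUSG00000055116.8, chromosome 7, 113207465 to 113314126, plus strand, GRCm38 as are all positions here), could not be compared between groups. It was listed at 0 after rounding in 18 of 38 libraries, and 18 exceeded 3 counts. Among non_failing libraries 4 were at 0 and the others held 3.2, 10.8, 14.6 and 60 counts. In HFpEF+Veh 3 were at 0 and the others held 2.8, 8.2, 13.3, 62.0 and 91.7. In HFpEF+TYA-018 6 were at 0, and the other 5 held between 2.5 and 6.3 counts. In HFpEF+SGLT2i 5 were at 0, and the others held 4.7, 8.2, 17.0, 29.0, 49.9 and 87.1. All groups overlapped at 0.

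Other genes that most cells express were also listed at 0, so a 0 is not read here as an absent transcript. Clock, the usual partner of Arntl, was at 0 in 15 libraries and reached 299 counts in another. Ddx6, a broadly expressed RNA helicase, was at 0 in 20 and reached 448. Adpgk and Esyt2 were at 0 in 17 and 21. Hprt, Tbp, Polr2a and Pgk1 were at 0 in no library. In all, 186 genes, 177 of them tested, were at 0 in at least 8 libraries and at 30 or more counts in at least 5, a criterion and examples chosen after the values were seen. No group difference is drawn from the fitted fold changes of Arntl. They still enter the counts of 10 members, the medians over members and the ranges given with the limits, and relations that include Arntl carry the same limit. Without Arntl, the median log2 fold change of the other 9 members was -0.17 in HFpEF+TYA-018 and -0.26 in HFpEF+SGLT2i against non_failing.

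**Figure D3:**
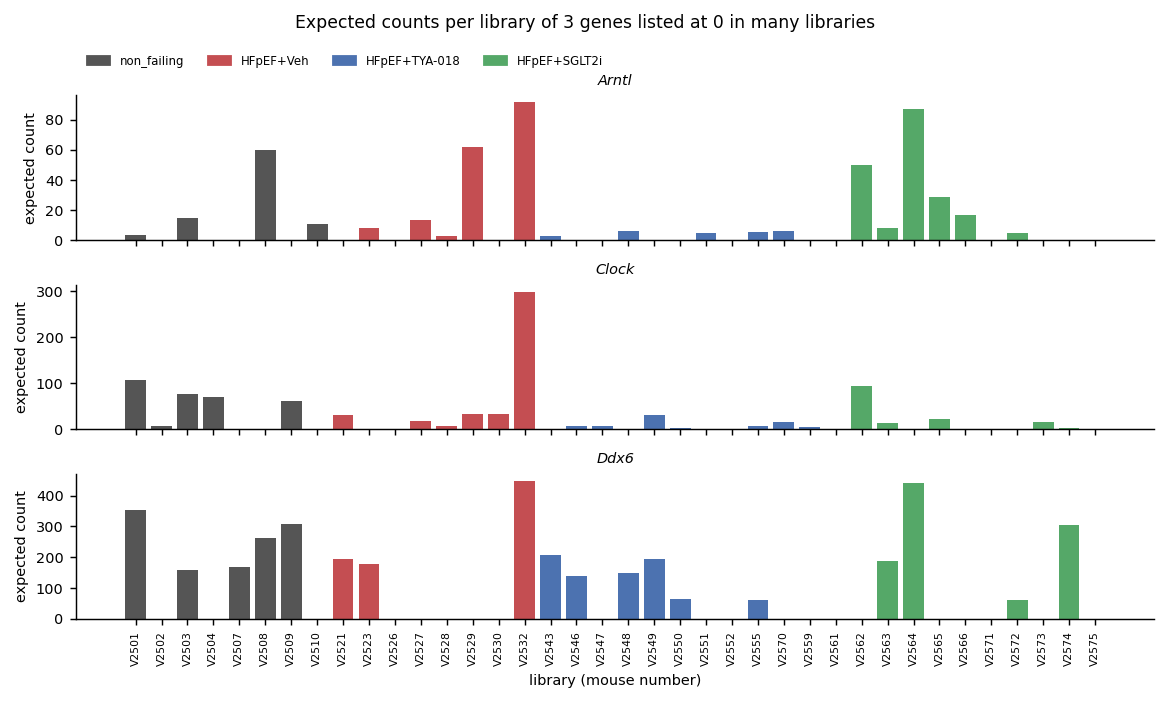
Expected counts of Arntl, Clock and Ddx6 in each library (linear axes from 0), coloured by group. Libraries at 0 occur in every group, 18, 15 and 20 of 38 in all, and Arntl does not exceed 6.3 counts in HFpEF+TYA-018.

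A pair of matches to TNGGTCA stood upstream of the first Arntl start in the RefSeq promoter table (GRCm38.p6). TNGGTCA is a loose form of the ROR element core, with N any base. The 250 bases before that start, chr7:113207215-113207464, plus strand, are shown because Arntl is the classic target of the Nr1d1 and Nr1d2 products. The matches (either strand), TTGGTCA and TCGGTCA, are in capitals, and begin 200 and 181 bases before the start. A second Arntl start has these matches 246 and 227 bases before it. A further match, TAGGTCA, begins at base 31 counted from that second start, outside the stretch shown. Whether the Nr1d1 and Nr1d2 products bind any of these matches was not tested.
Arntl: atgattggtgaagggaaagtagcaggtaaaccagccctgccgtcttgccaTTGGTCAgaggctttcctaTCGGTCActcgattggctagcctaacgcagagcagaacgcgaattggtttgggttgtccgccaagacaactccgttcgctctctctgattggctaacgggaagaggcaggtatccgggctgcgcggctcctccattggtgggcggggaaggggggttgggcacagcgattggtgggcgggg
A TNGGTCA match occurs in 11.0% of the 32544 promoters of the table, each 250 bases before to 50 after a start.

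Npas2, which encodes the paralog of CLOCK (chromosome 1, 39193731 to 39363236, plus strand), was low but detected in every library, with 19 to 119 counts. Its level was 0.16 to 1.14 TPM in non_failing (median 0.74), 0.45 to 1.16 in HFpEF+Veh (median 0.59), 0.33 to 0.85 in HFpEF+TYA-018 (median 0.48) and 0.39 to 1.27 in HFpEF+SGLT2i (median 0.51). The groups overlapped, and the 6 log2 fold changes lay between -0.41 and 0.05, the lowest adjusted p being 0.312 (edgeR).

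Per2 (chromosome 1, 91415982 to 91459324, minus strand) and Per3 (chromosome 4, 151003652 to 151044665, minus strand), which encode repressors of the loop, varied widely among mice of a group, and no difference between groups passed the test. Per2 ranged from 1.73 to 11.4 TPM in non_failing (median 4.91), 1.78 to 8.35 in HFpEF+Veh (median 6.08), 3.04 to 9.99 in HFpEF+TYA-018 (median 4.69) and 2.33 to 6.59 in HFpEF+SGLT2i (median 4.72). Its highest non_failing library was thus 6.59 times its lowest. Per3 ranged from 7.05 to 17.0 TPM in non_failing (median 10.1), 5.33 to 13.0 in HFpEF+Veh (median 11.2), 5.72 to 20.97 in HFpEF+TYA-018 (median 12.8) and 5.59 to 20.3 in HFpEF+SGLT2i (median 11.6). Log2 fold changes over the 6 comparisons lay between -0.28 and 0.17 for Per2 and between -0.13 and 0.25 for Per3, with lowest adjusted p-values of 0.643 and 0.554 (edgeR).

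Nr1d1, which encodes the repressor REV-ERBα, was lower in HFpEF+TYA-018 than in non_failing hearts (ENSMUSG00000020889.11, chromosome 11, 98767932 to 98775333, minus strand). It ranged from 12.3 to 29.7 TPM in non_failing (median 24.0), 19.4 to 27.5 in HFpEF+Veh (median 21.6), 2.73 to 28.8 in HFpEF+TYA-018 (median 11.4) and 8.99 to 25.02 in HFpEF+SGLT2i (median 19.6). In HFpEF+TYA-018, 9 of 11 libraries, at 2.73 to 15.0 TPM, lay below every HFpEF+Veh library, and 6 of them lay below every non_failing library in TPM (9 in CPM, the scale of the test). V2559 and V2570 held 22.6 and 28.8 TPM, so the groups overlapped. The mouse number of V2570 lies outside the run of its group, between those of HFpEF+SGLT2i libraries V2566 and V2571, and its label was kept. Without it, Nr1d1 against non_failing was -0.92 (edgeR adjusted p 0.00517). The log2 fold change against non_failing was -0.76 (SE 0.23, edgeR adjusted p 0.0322), a fold of 0.59, and 9 of 11 libraries were below the non_failing mean in log2 CPM.

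Against vehicle, Nr1d1 did not pass the test. Its log2 fold change was -0.59 (SE 0.23, unadjusted p 0.0123, edgeR adjusted p 0.151). It was called at -0.76 without V2570 (adjusted p 0.0438) and at -0.71 with library size alone as the scaling (adjusted p 0.049). The 6 settings that did not leave out 1 library gave -0.89 to -0.60, with 1 call among them. Against HFpEF+SGLT2i it was -0.43 (95% interval -0.84 to -0.02, edgeR adjusted p 0.366). Empagliflozin hearts themselves gave -0.32 against non_failing (adjusted p 0.461) and -0.16 against vehicle (adjusted p 0.854). The SD of Nr1d1 in log2 CPM was 0.87 over the 11 libraries with TYA-018, 0.55 over the 10 without V2555, and 0.19 over the 8 vehicle libraries.

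The call of Nr1d1 against non_failing held without V2523 (-0.75, adjusted p 0.0334, edgeR) and without V2555 (-0.66, adjusted p 0.0271). It was lost on leaving out any one of V2501, V2503, V2504 and V2510 of non_failing or V2549 and V2552 of HFpEF+TYA-018, where the adjusted p rose to between 0.0531 and 0.066 and the log2 fold change stayed between -0.76 and -0.70. It was lost as well with only those 2 groups in the fit (adjusted p 0.0947). The length measure was also lower in HFpEF+TYA-018, at -0.48 to 0.03 (median -0.05), than in non_failing, at -0.10 to 0.23 (median -0.02). It was lower than in HFpEF+Veh (median 0.03) and HFpEF+SGLT2i (median 0.07) as well, with overlapping ranges. Nr1d1 followed the measure within groups at r 0.51 (rho 0.32), and at r 0.22 without the 2 libraries farthest from its median. The part of the length measure in the Nr1d1 difference was not tested. Nr1d1 shares 263 exonic bases with Thra on the opposite strand. The kit kept strand, and whether the quantification used it is not given in the sources used here.

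An E'-box stood close to the Nr1d1 start, 28 bases before it. The 250 bases before that start, chr11:98775378-98775627, minus strand, are shown since Nr1d1 is the member with the largest called change, and the capitals mark the E'-box (CACGTT, here on the other strand).
Nr1d1: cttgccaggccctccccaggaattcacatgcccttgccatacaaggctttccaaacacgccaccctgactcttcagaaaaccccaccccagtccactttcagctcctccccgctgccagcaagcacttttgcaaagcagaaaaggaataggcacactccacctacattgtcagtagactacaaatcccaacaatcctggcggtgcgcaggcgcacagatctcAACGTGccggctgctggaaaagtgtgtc
An E'-box occurs in 4.71% of the promoters.

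Nr1d2, which encodes the related REV-ERBβ (chromosome 14, 18204054 to 18239127, minus strand), varied little. It ranged from 25.3 to 40.3 TPM in non_failing (median 30.4), 23.4 to 38.02 in HFpEF+Veh (median 30.0), 15.7 to 34.99 in HFpEF+TYA-018 (median 25.6) and 20.1 to 34.0 in HFpEF+SGLT2i (median 26.7). Against non_failing its log2 fold change was -0.27 in HFpEF+TYA-018 (SE 0.12, edgeR adjusted p 0.166) and -0.26 in HFpEF+SGLT2i (SE 0.12, edgeR adjusted p 0.21). In each drug group 10 of 11 libraries lay below the non_failing mean, and neither difference passed the test.

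Nfil3, the repressor of D-box sequences, was higher in HFpEF+TYA-018 than in non_failing hearts (ENSMUSG00000056749.7, chromosome 13, 52967209 to 52981073, minus strand). It ranged from 1.99 to 3.50 TPM in non_failing (median 3.04), 3.00 to 4.44 in HFpEF+Veh (median 3.60), 2.02 to 5.97 in HFpEF+TYA-018 (median 4.59) and 2.51 to 6.21 in HFpEF+SGLT2i (median 3.29). In HFpEF+TYA-018, 7 of 11 libraries were above every non_failing library in TPM and 9 in CPM, and V2570, at 2.02 TPM, was the lowest. The log2 fold change was 0.63 (SE 0.16, edgeR adjusted p 0.0124), a fold of 1.54, and 10 of 11 libraries were above the non_failing mean.

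This call held without V2523 (0.63, edgeR adjusted p 0.0112) and without V2555 (0.56, edgeR adjusted p 0.0308). It held in all 38 fits that left out a library, from 0.56 without V2555 to 0.70 without V2570, with adjusted p-values of 0.00222 to 0.0366, and in the 6 other settings, from 0.49 to 0.64 (edgeR, DESeq2 or limma). Against vehicle the log2 fold change was 0.39 (SE 0.16, edgeR adjusted p 0.193), and vehicle against non_failing gave 0.24 (SE 0.17, edgeR adjusted p 0.531). Empagliflozin gave 0.34 against non_failing (SE 0.16, edgeR adjusted p 0.229). The difference between the drugs was 0.28 (95% interval -0.00082 to 0.57, edgeR adjusted p 0.401), which misses the threshold.

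Among the D-box activators, Hlf was lower with empagliflozin than in non_failing hearts (ENSMUSG00000003949.16, chromosome 11, 90336536 to 90390895, minus strand). It ranged from 2.23 to 6.13 TPM in non_failing (median 3.53), 2.03 to 4.29 in HFpEF+Veh (median 2.65), 1.61 to 3.74 in HFpEF+TYA-018 (median 2.55) and 1.39 to 3.30 in HFpEF+SGLT2i (median 2.61). All 11 empagliflozin libraries lay below the non_failing mean of 3.95 TPM, and 3 below every non_failing library. The log2 fold change was -0.62 (SE 0.19, edgeR adjusted p 0.0382), a fold of 0.65. Vehicle gave -0.54 (SE 0.20, edgeR adjusted p 0.152) and TYA-018 gave -0.46 (SE 0.19, edgeR adjusted p 0.13), and neither passed the test.

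A GC measure, built like the length measure from transcripts rich and poor in G and C, was higher in HFpEF+SGLT2i, at -0.13 to 0.21 (median 0.10), than in non_failing, at -0.26 to 0.01 (median -0.13). Hlf ran opposite to it within groups, at r -0.41, and the part of the measure in the Hlf difference was not tested.

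Against vehicle, Hlf gave -0.07 with empagliflozin (95% interval -0.44 to 0.30, edgeR adjusted p 0.929) and 0.08 with TYA-018 (95% interval -0.29 to 0.45, edgeR adjusted p 0.857). The empagliflozin call held without V2523 (-0.62, adjusted p 0.0353) and without V2555 (-0.63, adjusted p 0.0297), and was lost in 9 fits without 1 library, listed with the limits. It was also lost at -0.62 with no low count filter (edgeR adjusted p 0.0503). With only the empagliflozin and non_failing groups in the fit it was lost at -0.62 (edgeR adjusted p 0.0708), and with limma at -0.48 (limma adjusted p 0.077). The non_failing libraries V2508, V2509 and V2510 held the highest values of all, 5.65, 5.30 and 6.13 TPM. Without them in turn the log2 fold change was -0.53, -0.55 and -0.51 (edgeR adjusted p 0.103, 0.0936 and 0.101).

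Dbp (chromosome 7, 45705088 to 45710203, plus strand) and Tef (chromosome 15, 81802421 to 81826863, plus strand), the other D-box activators, did not pass in any of the 6 comparisons. Dbp ranged from 32.0 to 61.0 TPM in non_failing (median 43.6), 27.7 to 49.0 in HFpEF+Veh (median 37.1), 10.9 to 55.5 in HFpEF+TYA-018 (median 43.4) and 18.4 to 50.9 in HFpEF+SGLT2i (median 38.1). The lowest value, 10.9 TPM, was that of V2555, and V2571 and V2572 held 18.4 each. Tef ranged from 35.3 to 79.5 TPM in non_failing (median 43.8), 28.4 to 60.6 in HFpEF+Veh (median 53.2), 29.2 to 76.3 in HFpEF+TYA-018 (median 44.0) and 32.4 to 63.2 in HFpEF+SGLT2i (median 44.5). Log2 fold changes lay between -0.39 and 0.22 for Dbp and between -0.10 and 0.06 for Tef, with lowest adjusted p-values of 0.349 and 0.798 (edgeR). On the opposite strand, Dbp shares 539 exonic bases with Sphk2, Tef 193 with Gm17597 and Arntl 33 with Gm45355.

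Mice of one group differed more in most of these genes than in the typical gene tested. The SD of log2 CPM within groups was 0.66 for Per2, 0.55 for Nr1d1, 0.52 for Npas2, 0.51 for Dbp and 0.49 for Per3, above those of 80.4 to 89.4% of all genes tested, whose median SD was 0.27. Hlf (0.43), Tef (0.38) and Nfil3 (0.36) were above 67.0 to 75.4%. Nr1d2, at 0.27, was at 50.4%. Arntl, at 98.2%, is near its floor and follows the zeros described above.

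The deviations of mice from their group mean were shared among 4 members, grouped after the values were seen. Per2, Per3, Nr1d2 and Tef rose and fell together, with Pearson r of log2 CPM deviations between 0.75 and 0.92 in their 6 pairs (n = 38 libraries, Spearman rho 0.71 to 0.91). Each of these pairs had a permutation p of 1e-05, the smallest that 100000 shuffles within groups can give, and an adjusted p of 5e-05 over the 45 pairs of members. Their r stayed between 0.70 and 0.93 when any 1 library was left out, and between 0.67 and 0.89 without the 2 libraries farthest from the median. Per3 and Tef were the closest pair, with r between 0.89 and 0.96 within each of the 4 groups. The other 5 pairs lay between 0.82 and 0.97 within non_failing, HFpEF+Veh and HFpEF+TYA-018. Within HFpEF+SGLT2i they were lower, at 0.24 for Per2 with Nr1d2, 0.61 for Per2 with Per3, 0.71 for Nr1d2 with Tef, 0.78 for Per3 with Nr1d2 and 0.83 for Per2 with Tef. That difference between groups was not tested.

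**Figure D4:**
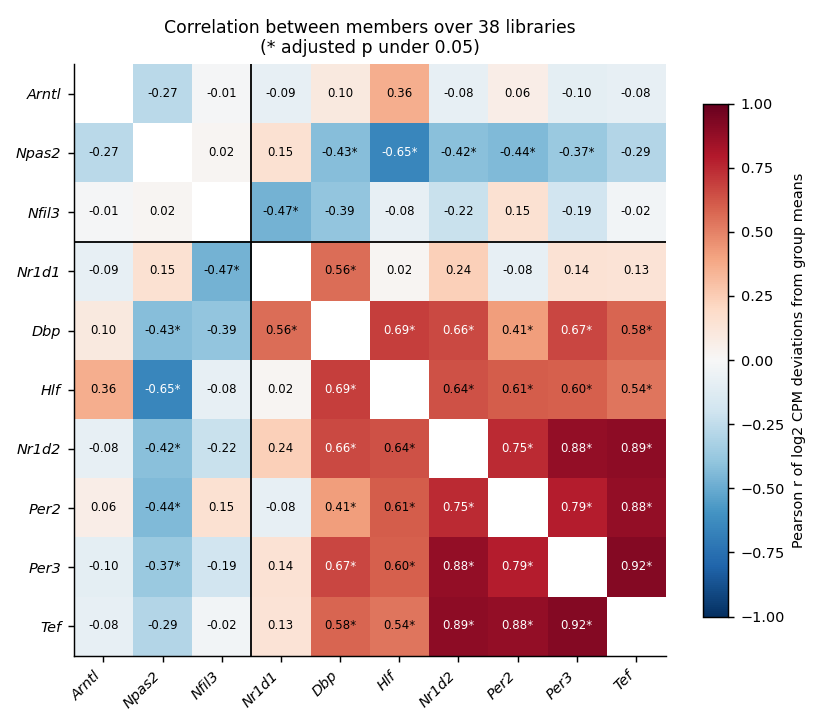
Pearson r between members over 38 libraries, from log2 CPM after subtracting each group mean, with an asterisk for an adjusted p under 0.05. The block of Nr1d2, Per2, Per3 and Tef reaches 0.75 to 0.92, Npas2 and Hlf reach -0.65, and the row of Arntl has no asterisk.

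Dbp and Hlf joined that block at lower values. Hlf correlated with Dbp at 0.69, with Nr1d2 at 0.64, with Per2 at 0.61, with Per3 at 0.60 and with Tef at 0.54, and Dbp with Per3 at 0.67, with Nr1d2 at 0.66, with Tef at 0.58 and with Per2 at 0.41 (permutation test, adjusted p at most 0.00781). Within HFpEF+SGLT2i the relation of Hlf with Per2 was -0.08 and with Tef 0.14, beside 0.94 and 0.89 within non_failing. That difference between groups was not tested. Of the 21 pairs among Per2, Per3, Nr1d1, Nr1d2, Dbp, Tef and Hlf, 20 were positive and 16 were called. The called pairs were 16 without V2523 and 15 without V2555. Without the 2 libraries farthest from the median, 16 pairs were positive and 15 were called. Without V2555, the pairs of Nr1d1 were negative except that with Dbp.

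Nr1d1 stood outside the block. Its r was -0.08 with Per2, 0.14 with Per3, 0.24 with Nr1d2, 0.13 with Tef and 0.02 with Hlf, none called (adjusted p 0.333 to 0.916, permutation test). Without V2555 these were -0.29, -0.21, -0.03, -0.14 and -0.23 in the same order, and none was called. With Dbp it was 0.56 (rho 0.35, adjusted p 0.0244), but that rested on V2555, without which r was 0.23 (adjusted p 0.309). Within HFpEF+TYA-018, where V2555 lies, r was 0.87, and within the other groups it was between 0.03 and 0.12.

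Sequences near the starts of the closest pair hold clock motifs. Per3 has a pair of D-boxes (TTANGTAA, in 2.29% of promoters) beginning 205 and 158 bases before its start. It also has a TNGGTCA match at 118, and all are in capitals below, at chr4:151044666-151044915, minus strand. Tef has an E-box (CACGTG, in 7.17% of promoters) 127 bases before its first start, shown with 12 bases on each side at chr15:81802534-81802563, plus strand. Its second start has an E-box 138 and a TNGGTCA match 219 bases before it, the match in the same letters as that of Per3.
Per3: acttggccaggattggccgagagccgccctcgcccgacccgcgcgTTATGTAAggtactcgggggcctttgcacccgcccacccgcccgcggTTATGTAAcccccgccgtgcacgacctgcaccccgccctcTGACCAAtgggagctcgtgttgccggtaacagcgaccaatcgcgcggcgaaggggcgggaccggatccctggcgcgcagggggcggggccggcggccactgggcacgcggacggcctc
Tef: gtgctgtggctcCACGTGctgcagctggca
Among the other members with an entry, Nfil3 has a TNGGTCA match 12 bases before its start. Npas2, Nr1d2, Dbp and Hlf have none of the 4 motifs in this window. Both strands were searched. A match describes letters only, and motifs outside the window were not searched.

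The relation of Arntl, Npas2 and Nfil3 with the other 7, which can serve as a sign of the hour of collection, was negative in 16 of 21 pairs. Of these pairs 6 were called, all negative. Npas2 gave 5 of them: -0.65 with Hlf (adjusted p 0.000327), -0.43 with Dbp (0.00781), -0.42 with Nr1d2 (0.0162), -0.44 with Per2 (0.0328) and -0.37 with Per3 (0.044, permutation test). Npas2 with Hlf was negative within each group, at -0.63 within non_failing, -0.68 within HFpEF+Veh, -0.35 within HFpEF+TYA-018 and -0.87 within HFpEF+SGLT2i, and without the 2 farthest libraries it was -0.68. Npas2 with Per2 was -0.67 and -0.92 within non_failing and HFpEF+Veh but 0.10 and 0.04 within HFpEF+TYA-018 and HFpEF+SGLT2i. Npas2 with Per3 was not called without V2555 (r -0.38, adjusted p 0.0544, permutation test). Npas2 with Nr1d1 was 0.15 and not called (adjusted p 0.413, permutation test), at 0.79 within non_failing and 0.42 within HFpEF+SGLT2i but -0.10 within HFpEF+Veh and -0.34 within HFpEF+TYA-018.

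Nfil3 gave the sixth, -0.47 with Nr1d1 (rho -0.25, adjusted p 0.042, rho adjusted p 0.265), which was -0.75 within HFpEF+TYA-018 and -0.48 within HFpEF+SGLT2i but 0.42 within non_failing and 0.57 within HFpEF+Veh. Without V2555 it was -0.42 (adjusted p 0.0544, permutation test), and on leaving out any 1 library it lay between -0.52 and -0.33. V2555 deviated from its group mean by 0.52 for Nfil3 and -2.08 for Nr1d1 in log2 CPM. V2570, whose mouse number lies outside the run of its group, deviated by -1.07 and 1.24. Arntl lay between -0.10 and 0.36 with the 7, with 0 pairs called by r and 0 by rho in the 38 libraries. Among themselves, Npas2 with Nfil3 gave 0.02, Arntl with Npas2 -0.27 and Arntl with Nfil3 -0.01, none called (permutation test).

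**Figure D5:**
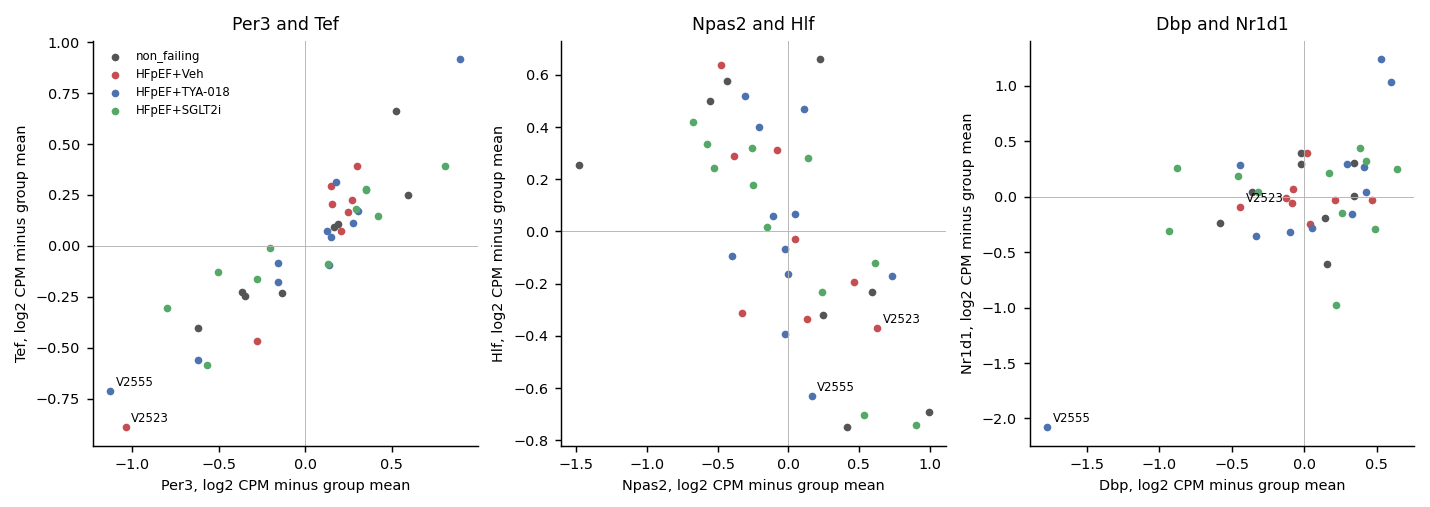
Deviations from the group mean in log2 CPM for 3 pairs of members, 1 point per library, coloured by group. Per3 and Tef lie along a line (r 0.92), Npas2 and Hlf run opposite (r -0.65), and Dbp and Nr1d1 (r 0.56) depend on V2555 at the lower left.

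The count of negative pairs depended on how it was made. It was 6 by r, 4 by rho, 7 without removing group means, 3 from log2(TPM + 1) with 1 positive pair, 2 with library size alone as the scaling, again with 1 positive pair, and 2 without the 2 farthest libraries, and 4 each without V2523 and without V2555. It fell to 3 without V2508, V2509 or V2521. Within single groups of 8 to 11 libraries it was 0, 1, 0 and 2. The count of called positive pairs among the other 7 was 15 to 17 in all settings that used the 4 groups together.

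Measures of the libraries moved with some members. The length measure correlated with Nr1d1 at 0.51, with Nr1d2, Per2 and Tef at 0.49, with Hlf at 0.45, with Dbp at 0.43 and with Per3 at 0.40 (n = 38, permutation test, adjusted p 0.0259 to 0.0516 over 30 relations, rho 0.05 to 0.37). Without the 2 libraries farthest from its median these fell to between -0.02 and 0.35. The GC measure correlated with Npas2 at 0.46 (adjusted p 0.0259) and with Hlf at -0.41 (adjusted p 0.0412). The log2 total count correlated with Arntl at 0.58 (adjusted p 0.0159) and with Npas2 at -0.47 (adjusted p 0.0259). With all 3 measures removed from the deviations, Npas2 with Hlf was -0.54, Per3 with Tef 0.90, and 8 negative pairs between the sets were called, with 15 positive pairs and 1 negative pair, Per2 with Nr1d1 at -0.51, among the other 7. The measures and their removal were chosen after the data were seen.

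The genes with patterns most like those of Dbp and Arntl were listed. Ranked by r of deviations among all genes tested, Ciart (0.83) and Bhlhe41 (0.80), which encode repressors of the loop, came first for Dbp, and the first 10 also held Hlf (0.69), Usp2 (0.68), Per3 (0.67), Nr1d2 (0.66), Tbc1d19 (0.64), Jarid2 (0.63) and Rsad1 (0.63). The most opposed were Fcgr2b (-0.71), Ppp2r5a (-0.70), Xbp1 (-0.67), Unc119b (-0.67), Fuca1 (-0.67), Rhoj, Nxn, Iffo2, Cdkn1a and Apod (-0.66 to -0.64). For Arntl the first were Asah2 (0.66), Aqr (0.65) and Llph-ps2 (0.62) and the most opposed Actb (-0.68) and Pdia5 (-0.66), with no member among either 10. Of the 10 most like Arntl, 3 were also at 0 in at least 8 libraries.

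Other components of the loop were read from a list. Of 18 listed, which include Clock, Per1, Cry1, Cry2, Rora and Ciart, 16 were tested and 0 were called in any of the 6 comparisons by edgeR. At an unadjusted p under 0.05, 0 to 5 passed, the 5 in HFpEF+TYA-018 against non_failing, where 21.97% of all genes tested and 4 of the 10 members did. In HFpEF+SGLT2i against non_failing 3 of them passed, beside 19.6% of all genes and 3 members (edgeR). The smallest p in vehicle against non_failing was that of Ciart, at -0.79 (SE 0.33, edgeR adjusted p 0.218). Their median log2 fold change ran from -0.09 to 0.05. Among 19 other genes known to cycle in mouse tissues, 1 was called, Por, the electron donor of cytochrome P450 enzymes, at 0.21 in HFpEF+SGLT2i against non_failing (SE 0.06, edgeR adjusted p 0.0281).

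Heart genes that have been named as targets of the clock formed a further list. Of 13, 2 were called higher in each of HFpEF+TYA-018 and HFpEF+SGLT2i against vehicle (edgeR). In those comparisons 1.93% and 0.85% of all genes tested and 0 of the 10 members were called. Ucp3, a mitochondrial carrier, rose by 0.79 (SE 0.21, edgeR adjusted p 0.037) and 1.17 (SE 0.21, edgeR adjusted p 0.00129) on the log2 scale, Kcnh2, a potassium channel, by 0.41 with TYA-018 (SE 0.11, edgeR adjusted p 0.042), and Pdk4, an inhibitor of glucose oxidation, by 0.86 with empagliflozin (SE 0.18, edgeR adjusted p 0.00865). Pdk4 was also higher in vehicle than in non_failing, by 0.68 (SE 0.20, adjusted p 0.0457 by edgeR). Against non_failing, Pdk4 and Ucp3 were called higher with each drug, and Tcap, a sarcomere protein, lower with empagliflozin.

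Genes that respond to temperature and to glucocorticoids, other signals that set tissue clocks, formed 2 more lists. Of 12 temperature genes, 0 were called in vehicle against non_failing, with 5 at an unadjusted p under 0.05 (edgeR) and all 12 lower. In HFpEF+TYA-018 and HFpEF+SGLT2i against non_failing, 5 and 4 were called lower, where 7.39% and 6.45% of all genes tested were called. In HFpEF+SGLT2i against HFpEF+Veh, with 0.85% of all genes called, 1 was called lower, Rbm3, which fell by 0.38 (SE 0.09, edgeR adjusted p 0.0304). Against non_failing the cold-induced Rbm3 fell by 0.48 and 0.69 (SE 0.09 each), and the heat-shock genes Dnaja1, Dnajb1 and Hspa1a fell with it in both comparisons. Of 10 glucocorticoid genes, Lcn2 rose by 3.12 in vehicle against non_failing (SE 0.71, edgeR adjusted p 0.00873) and fell by 2.26 with TYA-018 against vehicle (SE 0.61, edgeR adjusted p 0.041), and Mt1 was higher with each drug against non_failing. Cardiomyocyte genes were called lower, 4 of 8, in vehicle and in empagliflozin hearts against non_failing, and 1 of 8 with TYA-018. Of 6 fibroblast genes, 2 were called higher in vehicle against non_failing, Lum, a collagen-binding proteoglycan, by 0.86 (SE 0.17, edgeR adjusted p 0.0019) and Pdgfra, a growth factor receptor, by 0.33 (SE 0.08, edgeR adjusted p 0.0123). Also against non_failing, Lum was called higher with TYA-018, and Pdgfra higher and Tcf21 lower with empagliflozin. Against vehicle, 0 of the 6 were called with either drug (edgeR). There 6 were lower and 0 higher with TYA-018 (median log2 fold change -0.23), and 5 lower and 1 higher with empagliflozin (median -0.22). The 1 adipocyte gene tested of 5, Cidea, which encodes a lipid droplet protein, was higher than in non_failing by 0.69 in HFpEF+Veh, 0.96 in HFpEF+TYA-018 and 0.90 in HFpEF+SGLT2i (SE 0.08 each, edgeR adjusted p at most 4.98e-07). The 4 erythrocyte genes had median log2 fold changes of 1.27, 1.11 and 0.37 in these groups against non_failing, with 1 called, Hbb-bs at 1.15 with TYA-018 (SE 0.35, edgeR adjusted p 0.0385). Endothelial and smooth muscle lists of 5 genes each held at most 1 called gene in each direction in these comparisons, and macrophage and atrial lists held 0, with at most 1 gene each at an unadjusted p under 0.05 (edgeR). All 10 hepatocyte genes were called lower with each drug against vehicle, a result in which V2523 at 2043 CPM stands beside a median of 5.55 CPM in the other vehicle hearts, 2.83 with TYA-018 and 4.39 with empagliflozin. The part of these shifts in the values of the members was not tested.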

How the data were processed

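Left ventricle poly-A RNA from 38 mice was sequenced with a stranded kit. Per the submitters' notes and the methods, the authors trimmed adapters, ran Salmon 1.6.0 on transcripts and used tximport for gene totals. The deposited files hold expected counts, TPM and an effective length for each gene and library. The labels' notes name a human build and the methods a mouse one, and GRCm38 positions are given here. The members and gene lists were chosen with earlier results of these data known; named genes were the 10 members, the 10 genes most and least correlated with Arntl and Dbp, and examples with the smallest p of each list, some of which are not reported here.

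Expected counts were rounded, filtered with filterByExpr (13765 of 29564 genes) and tested in a single model of the 4 groups by edgeR 4.0.16 (TMM, quasi-likelihood, R 4.3.3), with Benjamini-Hochberg adjustment over all genes tested and a threshold of 0.05. SEs are the log2 fold change over the square root of F. Libraries held 21451631 to 59280407 counts. Correlations used log2 CPM (prior count 2) minus group means, with 100000 permutations within groups (10000 on leaving out 1 library) and adjustment over 45 pairs. Alternatives were library size alone, no low count filter, a length offset, the 2 groups compared alone, limma 3.58.1 on log2(TPM + 1), DESeq2 1.42.0 and leaving out each library. Each library is 1 mouse, so p-values measure the spread between mice. Scripts were tested on simulated data. Promoters came from a RefSeq GRCm38.p6 table, with entries for 9 members; Per2 is named only.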

Additional observations from a re-analysis of the deposited data

Results flagged for a closer look

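In HFpEF+Veh, the lowest Per3 library, V2523 at 5.33 TPM, stood apart from the other 7 in log2 CPM, with a gap to its nearest neighbour of 0.566 of the group's range, above Dixon's 95% critical value. In TPM the gap was 0.511 of the range, below that value. It is the library with liver transcripts, at 2043 CPM of summed hepatocyte genes. In all, 20 groups of values were tested, and chance flags about 1 in 20. Without V2523 the Per3 log2 fold change of HFpEF+Veh against non_failing moved from -0.13 to -0.02 (edgeR adjusted p 0.97).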

How the results depend on the processing

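No paired analysis was possible because the mouse numbers differ between the groups. Of 60 member log2 fold changes, 21 reversed sign under an alternative, none of them called. The count of members called in HFpEF+TYA-018 against HFpEF+Veh was 1 with library size alone and 0 to 1 on leaving out 1 library. In HFpEF+TYA-018 against non_failing it was 1 with only those 2 groups in the fit and 1 to 2 on leaving out 1 library. In HFpEF+SGLT2i against non_failing it was 0 with no low count filter, 0 with only those 2 groups and 0 with limma, and 0 to 1 on leaving out 1 library. That Hlf call was lost without V2507, V2508, V2509 or V2510 of non_failing and without V2571, V2572, V2573, V2574 or V2575 of HFpEF+SGLT2i. Of 21 pairs between Arntl, Npas2 or Nfil3 and the other members, 3 negative ones were called from log2(TPM + 1), 2 with library size alone, 2 without the 2 farthest libraries, 0, 1, 0 and 2 within the 4 groups, and 3 to 7 on leaving out 1 library. Of 21 pairs among the other 7, 11 were called within non_failing, 5 within HFpEF+Veh, 9 within HFpEF+TYA-018 and 4 within HFpEF+SGLT2i, and 15 to 16 on leaving out 1 library. The cause was not tested, and fewer libraries enter a fit within a group. With limma the reversed values were in HFpEF+Veh against non_failing Npas2 0.0293, Per2 0.0206, and in HFpEF+TYA-018 against HFpEF+Veh Dbp -0.0099, Tef -0.0861, Hlf -0.0207, and in HFpEF+SGLT2i against HFpEF+Veh Nfil3 -0.025, Dbp -0.1307, and in HFpEF+TYA-018 against HFpEF+SGLT2i Tef -0.0291, and in HFpEF+SGLT2i against non_failing Npas2 0.0715. With library size alone they were in HFpEF+TYA-018 against HFpEF+Veh Tef -0.1088, Hlf -0.0506, and in HFpEF+SGLT2i against HFpEF+Veh Npas2 -0.0325, Dbp -0.049, and in HFpEF+TYA-018 against HFpEF+SGLT2i Tef -0.0014. With the length offset they were in HFpEF+SGLT2i against HFpEF+Veh Dbp -0.0063, and in HFpEF+SGLT2i against non_failing Npas2 0.0844, Per3 0.0025. On leaving out 1 library, the values that changed sign ranged in HFpEF+Veh against non_failing Npas2 from -0.2785 to 0.0347, Per2 from -0.219 to 0.1009, Tef from -0.1198 to 0.0511, and in HFpEF+TYA-018 against HFpEF+Veh Per2 from -0.1911 to 0.0767, Tef from -0.1107 to 0.0742, and in HFpEF+SGLT2i against HFpEF+Veh Arntl from -0.9892 to 0.2189, Npas2 from -0.0686 to 0.1542, Dbp from -0.0436 to 0.1057, Tef from -0.1347 to 0.0175, Hlf from -0.1267 to 0.0391, and in HFpEF+TYA-018 against HFpEF+SGLT2i Nr1d2 from -0.0811 to 0.0392, Tef from -0.0666 to 0.1158, and in HFpEF+TYA-018 against non_failing Per2 from -0.2725 to 0.0779, Tef from -0.1736 to 0.0683, and in HFpEF+SGLT2i against non_failing Arntl from -0.0004 to 1.5681, Npas2 from -0.2344 to 0.0834, Per3 from -0.1158 to 0.0784, Tef from -0.1598 to 0.0131.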
